A study of Mus musculus with 2 samples.

Results

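The cells compared here were the circulating T cells that the study annotated as effector CD4 T cells (EffCD4T, 45 cells) and naive CD4 T cells (NveCD4T, 85 cells), which made up 130 of the 978 blood cells with a cell type. They came from wild-type C57BL/6 J male mice of 10, 36, 77 or 101 weeks of age, and no group carried a transgene, a deletion or a treatment. Whole blood depleted of red blood cells was sorted as single cells into plates, 1 plate per mouse (scM&T-seq). The RNA of each cell was sequenced as a library of its own, apart from its DNA, which is not used here. Cells were summed per mouse and subtype. The 6 mice with at least 2 cells of each subtype gave the paired comparison, namely mouse 24 at 10 weeks, mice 14 and 15 at 36 weeks, and mice 21, 22 and 23 at 77 weeks. These mice held 36 of the effector and 50 of the naive cells. The 3 mice of 101 weeks held 9 effector but 2 naive cells and entered no paired comparison, only the counts of cells and the comparisons by age. The median cell had 424636 counts in the effector and 368334 in the naive subtype, and summed libraries held between 1125969 and 5197136 counts.

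Naive CD4 T cells recirculate through lymph nodes, which they enter with the chemokine receptor Ccr7 and leave through the lipid receptor S1pr1. Transcription factors such as Klf2, Foxp1, Lef1 and Tcf7 hold them in a resting state. Effector and memory cells have lost much of that program and carry receptors for inflamed tissue, cytokine receptors and, in some lineages, cytotoxic granule genes. A T cell is also marked by its antigen receptor, whose alpha chain joins 1 of many Trav segments to a Traj segment and whose beta chain joins a Trbv segment to others. The annotation had been drawn by the study from the RNA of these same cells, so the gene differences between the subtypes describe it and are no independent evidence for it. Age was not used to draw it.

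The data went against the label for most of the effector-annotated cells. Cd4, the co-receptor that names the lineage, had at least 1 count in 8 of 45 effector cells (17.8%, 95% Wilson interval 9.29 to 31.3) and in 40 of 85 naive cells (47.1%, interval 36.8 to 57.6), although the T cell receptor subunit gene Cd3d was found in 44 and 81 of them. The alpha segments Trav11 or Trav11d had counts in 38 of 45 effector cells (84.4%, interval 71.2 to 92.3) and in 1 of 85 naive cells (1.18%, interval 0.208 to 6.37). The same segments had counts in 2 of 8 cells annotated MemCD4T, in 1 of 106 annotated MemCD8T and in 0 of 13 regulatory, 0 of 25 natural killer and 0 of 600 B cells. Joining segment Traj18 was found in 37 effector cells, 35 of which also had counts on Trav11 or Trav11d, and in 7 naive cells. In mice an alpha chain that joins Trav11 to Traj18, with a beta chain from Trbv13, Trbv29 or Trbv1, is known as the receptor of T cells that recognise lipids on the molecule CD1d. The cells are therefore called here by their annotation and by their leading segment, and no other cell type name is given to them. Intervals on shares of cells cover counting error only, and a cell with no count may still have expressed the gene.

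**Figure D1:**
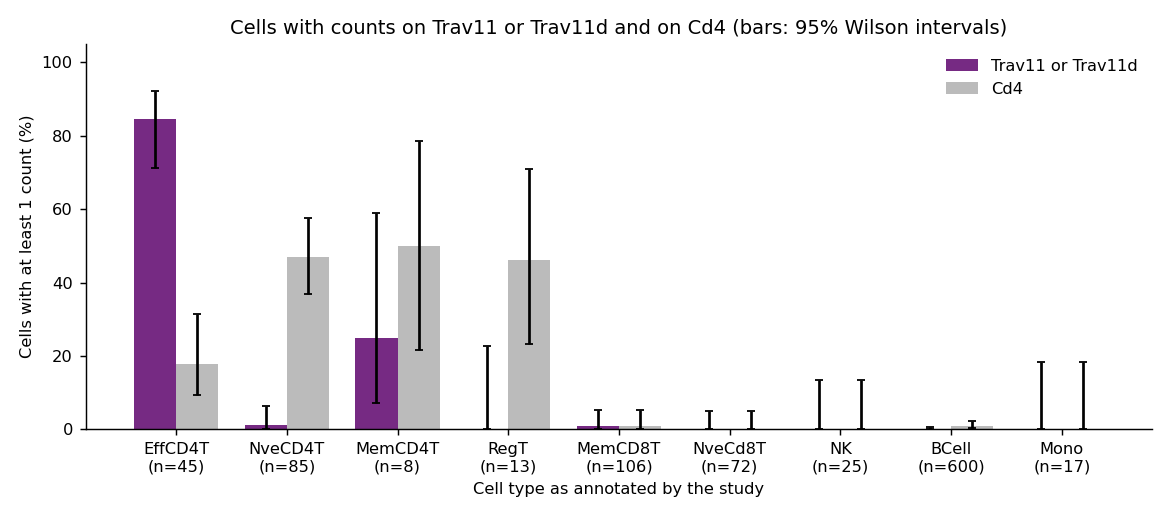
Share of cells with at least 1 count on Trav11 or Trav11d (purple) and on Cd4 (grey), in percent, for each cell type annotated by the study, with 95% Wilson intervals as bars. The effector-annotated cells stand at 84.4% for the alpha segments and 17.8% for Cd4, and the naive-annotated cells at 1.18% and 47.1%.

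The alpha segments are shown because the result above turned on them. The annotated transcripts of Trav11d and Trav11 were identical over the 342 bases compared (0 mismatches). A read within them fits both copies, so the division of counts between these genes is uncertain. All 3 segments lie on the forward strand of chromosome 14 in GRCm38. The last exon of Trav11d spans chr14:52824623-52824912 (290 bases) while the single exon of Traj18 spans chr14:54200777-54200842 (66 bases). Capitals mark the last 12 bases of the Trav11d exon, next to which the joining segment is placed. In Traj18 they mark 12 bases that begin with TTTGG, followed by 4 bases of any kind, GG and 1 more base, a pattern found on the sense strand of 36 of the 60 annotated Traj segments (60%).
Trav11d last exon: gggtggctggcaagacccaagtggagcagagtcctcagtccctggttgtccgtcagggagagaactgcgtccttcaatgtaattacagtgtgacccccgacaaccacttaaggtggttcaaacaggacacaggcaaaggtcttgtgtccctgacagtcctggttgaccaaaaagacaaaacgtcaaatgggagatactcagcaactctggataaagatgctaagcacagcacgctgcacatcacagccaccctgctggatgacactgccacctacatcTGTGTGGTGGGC
Traj18: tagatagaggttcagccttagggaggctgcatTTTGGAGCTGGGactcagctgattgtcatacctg

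When each cell was given the segment with the most counts (at least 10), Trav11d led in 34 of the 43 effector cells with such a segment (79.1%, 95% Wilson interval 64.8 to 88.6) and in 1 of 75 naive cells. It led in at least 1 effector cell of each of the 9 mice that had any: in all 6 cells of mouse 15, all 6 of mouse 21 and all 3 of mouse 3, in 8 of 11 of mouse 23, 5 of 7 of mouse 22, 2 of 3 of mice 14 and 24, and 1 of 3 of mice 1 and 2. In sums per mouse, Trav11d stood at 683 CPM (counts scaled to a common library total) in the lowest, 729 in the median and 939 in the highest effector sum, and at 0, 0 and 84.8 CPM in the naive sums, where 1 cell held all of it. The groups did not overlap, as for 5.76% of all tested genes. Both copies were below the threshold of 0.1 (edgeR adjusted p = 0.0581 for Trav11d and 0.0572 for Trav11), which is no independent evidence. They were singled out after their values were seen and passed the detection filter through the effector cells alone. As near-identical copies they also count as 1 signal. Traj18, with 22.7 to 53.9 CPM in the effector and 0 to 13.1 CPM in the naive sums, did not pass (adjusted p = 0.165).

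The beta chains of the effector cells were also few. Trbv13-2 led in 18 of 45 cells (40%, 95% Wilson interval 27.0 to 54.5), Trbv13-1 in 9, Trbv29 in 8 and Trbv1 in 5. In all, 8 segments led in the 45 effector cells and 20 in 81 naive cells, a number that rises with the cells counted. No segment led in more than 8 of the 81 naive cells with a leading beta segment. Of the 34 effector cells led by Trav11d, 13 had Trbv13-2, 6 had Trbv13-1, 8 had Trbv29 and 4 had Trbv1. The share of pairs of cells within a mouse that had the same leading Trbv segment was 24.9% ± 6.72 in the effector and 11.1% ± 6.10 in the naive cells (SD, n = 6 mice). It was higher in 5 mice and equal in mouse 15, which missed the threshold (two-sided exact sign-flip permutation test, p = 0.0625, adjusted p = 0.125 over 6 paired measures). With mouse 15 tied, 0.0625 is the smallest p this test can give. With Trav in place of Trbv the shares were 65.3% ± 31.4 and 0.898% ± 1.5, a description that follows from the lead of Trav11d given above and gets no test.

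**Figure D2:**
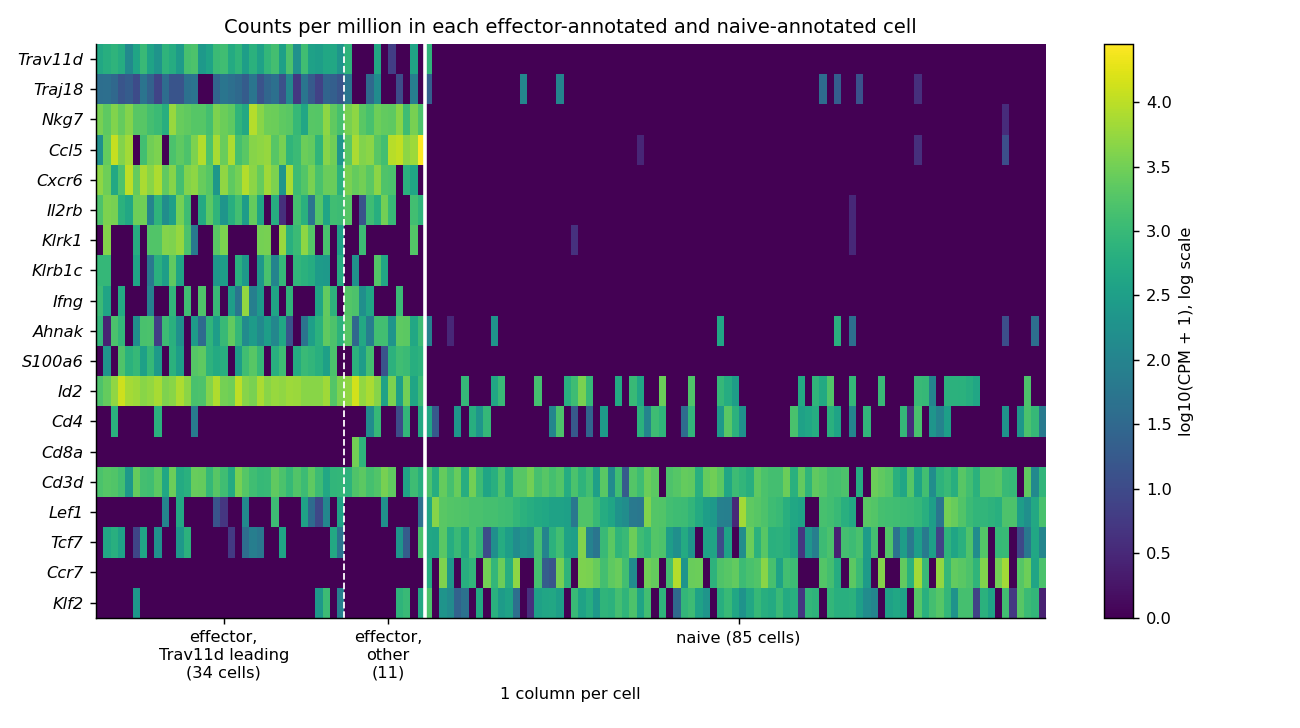
Each column is 1 of the 130 cells and each row a gene, with color giving log10(CPM + 1) on a log scale; effector cells led by Trav11d (34), other effector cells (11) and naive cells (85) are separated by white lines. Nkg7 is seen in all 45 effector cells and 1 naive cell, Ccr7 in no effector cell and 66 naive cells.

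The 11 effector cells not led by Trav11d were like the other 34 in some genes and unlike them in others, which is given as a description without a test. Nkg7 and Ccl5 had counts in 11 of 11 of them and in 34 and 32 of the 34 cells led by Trav11d, and Cxcr6 in 9 of 11 and 34 of 34. Ccr7 had counts in none of either. Klrk1 was found in 2 of the 11 and 20 of the 34, Klrb1c in 3 and 22, and Cxcr3 in 4 and 24. Trav11d had counts in 4 of the 11 and Traj18 in 5. Cd4 was found in 5 of the 11 and in 3 of the 34, and Cd8a in 2 of the 11 and in 0 of the 34. Zbtb16, a transcription factor of innate-like T cells, had counts in 6 of the 34, 0 of the 11 and 3 of the 85 naive cells.

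A gene was tested if 25% or more of either subtype's cells had a count on it. Of 3941 such genes, 38 were higher in the effector sums (0.964%) and 42 were lower (1.07%), or 80 in all (2.03%). The threshold was an adjusted p of 0.1 in edgeR's quasi-likelihood test, in which each mouse was a block. The genes higher in effector cells included the granule gene Nkg7, the chemokine gene Ccl5 and the receptor genes Il2rb, Cxcr6 and Ccr2, beside noncoding RNAs, pseudogenes and genes of other roles. Those lower included 21 ribosomal protein genes and Ccr7, S1pr1, Klf2 and Foxp1, of naive T cell traffic and rest. Of the 38 higher genes, 34 were higher in all 6 mice, against 5.23% of all tested genes, and 40 of the 42 lower genes were lower in all 6, against 9.21%, a count that choosing genes by a paired test favours. DESeq2 called 13.8% of the tested genes higher and 6.88% lower (20.7% in all), and limma 6.95% and 5.05% (12% in all). The effector and naive sums did not overlap for 60 of the 80 genes, against 227 of all 3941 tested genes (5.76%). Of the 38 higher genes, 24 had passed the detection filter through the effector cells alone, and 11 of the 42 lower genes through the naive cells alone, so such genes had to differ to be tested. With DESeq2's size factors in place of the TMM scaling the split was 44 higher and 22 lower, or 66.7% higher against 47.5%. The median log2 difference of all tested genes was 0.13 with those factors and -0.096 with TMM, and all 80 genes kept their direction. edgeR called 0 genes in cells without hemoglobin contamination and 0 in 77-week mice alone, with 200 and 359 genes at an unadjusted p under 0.05. There 79 and 80 of the 80 genes had the same sign. Fewer genes were called without any 1 mouse: 37 without mouse 14, 34 without 15, 21 without 21, 26 without 22, 48 without 23 and 56 without 24.

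**Figure D3:**
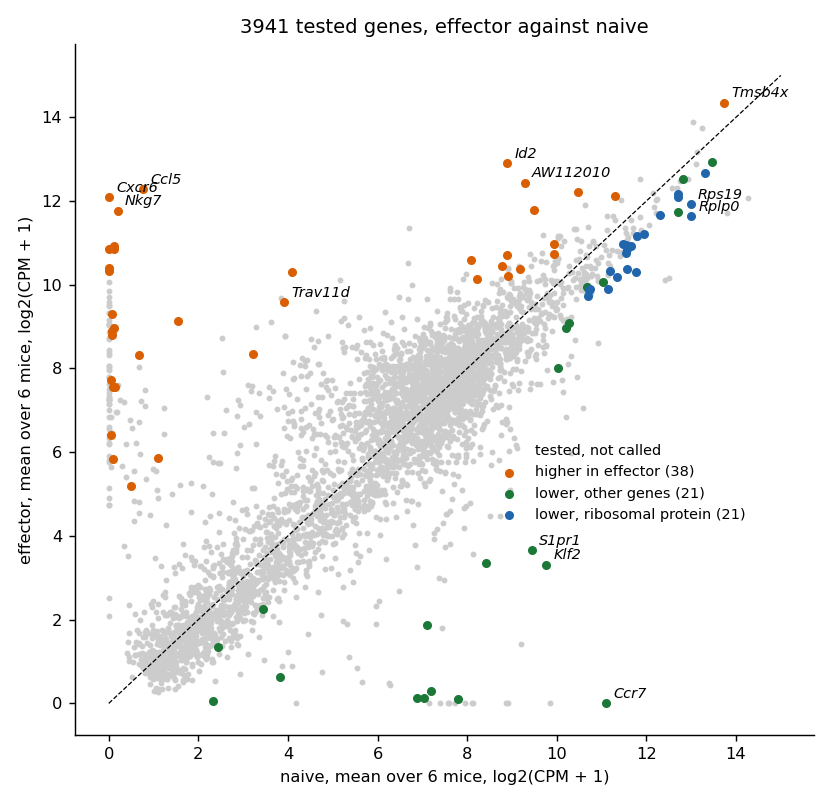
Mean level of each of the 3941 tested genes in naive (x) and effector (y) sums over 6 mice, both as log2(CPM + 1), with genes higher in effector in orange, ribosomal protein genes lower in effector in blue and other lower genes in green. The 38 higher genes lie above the dashed line of equal levels, many of them at the left edge where naive sums were near 0; the 21 ribosomal genes lie just below the line at high levels.

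The 12 genes higher with the smallest p were AW112010, Nkg7, Il2rb, Gm19585, Chsy1, Rbpj-ps3, Bcl2a1a, Klrk1, Dusp6, Itga1, Ccl5 and Socs2. AW112010, a long noncoding RNA gene, stood at 2483, 6029 and 6798 CPM in the lowest, median and highest effector sum and at 318, 574 and 995 CPM in the naive sums. All effector sums were above all naive sums, with a log2 difference of 3.19 ± 0.17 (SE, adjusted p = 0.00155). Nkg7, a granule protein of cytotoxic lymphocytes, reached 2307, 3572 and 4993 CPM in the effector sums and at most 0.891 CPM in the naive sums (adjusted p = 0.00185), with counts in 45 of 45 effector and 1 of 85 naive cells. Il2rb, the chain shared by the interleukin-2 and interleukin-15 receptors, reached 810, 1681 and 3510 CPM against at most 0.466 CPM (adjusted p = 0.00185). Both were close to absent from the naive cells, and no fitted log2 difference is given for genes with a group near 0, since it depends on the prior count. Ccl5, a chemokine, spanned 2201 to 10584 CPM in effector and 0 to 3.56 CPM in naive sums (adjusted p = 0.00487). Gm19585, a long noncoding RNA gene detected in both subtypes, stood at 1164, 1549 and 1806 against 236, 258 and 327 CPM, a log2 difference of 2.49 ± 0.20 (SE, adjusted p = 0.00305).

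Klrk1, the activating receptor NKG2D of natural killer and T cells, was found in 22 effector and 2 naive cells and was above the naive level in 5 of 6 mice, with 0 counts in 1 effector sum. Itga1, an integrin that binds collagen, was found in 29 and 2 cells, Dusp6, a phosphatase of ERK kinases, in 18 and 3, and Socs2, a brake on cytokine signalling, in 26 and 3. Chsy1, an enzyme of chondroitin synthesis, was found in 31 and 1. Rbpj-ps3 is named as a pseudogene of Rbpj, which was also higher. Bcl2a1a belongs to a cluster of near-identical survival genes, with Bcl2a1b and Bcl2a1d also higher, so counts may be divided among these copies. Id2, a transcriptional regulator of effector and innate lymphocytes, stood at 3476, 7354 and 13932 CPM in the effector and 170, 506 and 754 CPM in the naive sums, a log2 difference of 4.03 ± 0.53 (SE, adjusted p = 0.0242). Cxcr6, a chemokine receptor of tissue-homing lymphocytes, stood at 1919, 4131 and 7802 CPM and had 0 counts in the naive sums (adjusted p = 0.027). Counts on Cxcr6 were found in 43 of 45 effector cells and in 0 of 85 naive cells (Wilson interval 0 to 4.32%). No fold is given for Cxcr6, since it would rest on the count set for the naive sums. Copies made by amplification were counted as separate reads, so a few counts would set no lower limit on a fold.

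**Figure D4:**
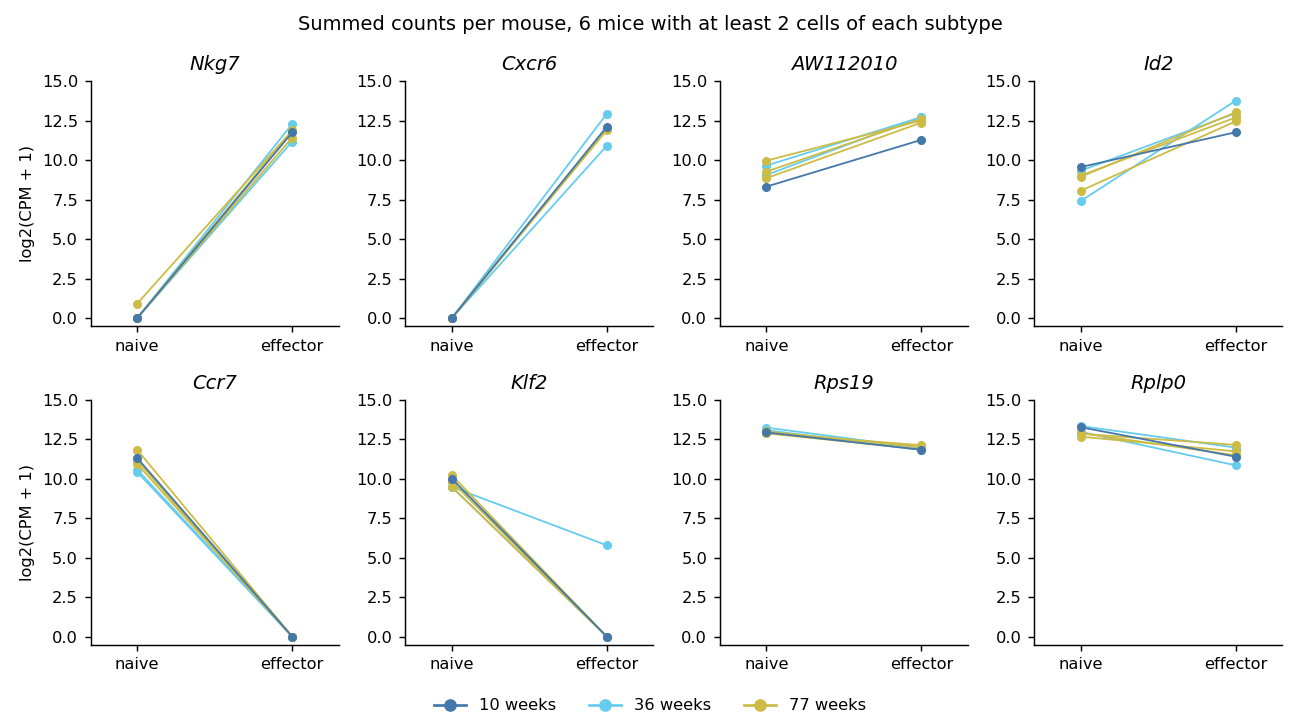
Level of 8 genes in the naive and effector sums of each of the 6 paired mice, as log2(CPM + 1), joined by a line per mouse and colored by age. Cxcr6 is at 0 in the naive and Ccr7 at 0 in the effector sums of all 6 mice, and the ribosomal genes Rps19 and Rplp0 are lower in effector in all 6.

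Of the 28 genes of naive T cell identity and rest, 23 were tested, 6 were lower (Nsg2, Ccr7, Klf2, S1pr1, Foxp1 and Actn1) and 0 were higher, with a median log2 ratio of mean CPM of -3.02 against 0.013 over all tested genes (edgeR called 1.07% of all tested genes lower). In all 6 mice 14 of the 23 were lower, against 9.21% of all tested genes. Members such as Ccr7 and Nsg2 passed the detection filter through the naive cells alone, which favours a low median and more calls. The 6 calls became 0 without mouse 21, 1 without 15 or 22, 2 without 14 and 3 without 23 or 24, and 0 with genes detected as a covariate. Ccr7 stood at 1362, 2088 and 3611 CPM in the naive sums and at 0 in the 6 effector sums (adjusted p = 0.0572). S1pr1 stood at 304, 595 and 1657 CPM in the naive and at 0, 0 and 69.8 CPM in the effector sums (adjusted p = 0.0728). Klf2, a factor that drives S1pr1, stood at 707, 803 and 1184 against 0, 0 and 53.7 CPM (adjusted p = 0.0576). Naive sums were above effector sums for each of the 3 genes without overlap. Foxp1, which holds naive cells at rest, was measurable in both subtypes and stood at 573, 946 and 1756 CPM in the naive and 172, 252 and 387 CPM in the effector sums, a log2 difference of -1.98 ± 0.38 (SE, adjusted p = 0.0772).

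Lef1 and Tcf7, factors of naive and stem-like T cells, were found in 82 and 80 naive cells and in 13 and 18 effector cells and did not pass in edgeR (adjusted p = 0.198 and 0.261). DESeq2 called 17 of the 23 naive genes lower, against 6.88% of all tested genes, and limma 17, against 5.05%, and neither called any higher.

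Of the 40 effector and memory genes, 25 were tested, 4 were higher (Nkg7, Il2rb, Ccl5 and Id2) and 0 were lower in edgeR, which called 0.964% of all tested genes higher. DESeq2 called 18 higher, against 13.8% of all tested genes, and limma 16, against 6.95%, and each called 1 lower. The median log2 ratio of mean CPM was 4.0, against 0.013 over all tested genes. Members such as Nkg7, Il2rb, Ccl5, S100a6, S100a4 and Cd44 passed the detection filter through the effector cells alone, which favours a high median and more calls. S100a6, a calcium-binding protein, was found in 35 effector cells, with 145, 801 and 1122 CPM in the effector sums, and had 0 counts in all 85 naive cells (adjusted p = 0.15). Cd44, the classical antigen of experienced T cells, was found in 24 effector and 6 naive cells (adjusted p = 0.184), and S100a4 in 19 and 0 (adjusted p = 0.222). S100a6 and S100a4 passed with limma (adjusted p = 0.00342 and 0.0242), as did Cd44 (adjusted p = 0.0334). Among 16 tested genes of homing receptors and adhesion, Cxcr6 and Ccr2 were higher and Ccr7 and S1pr1 were lower in edgeR, against 0.964% and 1.07% of all tested genes. Without any 1 mouse 1 of the 16 was higher, and 0 were lower without mouse 21 or 22 and 1 without any other.

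Genes of helper lineages were not called by edgeR over the 3941 genes with the mouse as a block, while other settings and tools called some of them. Ifng, the cytokine of type 1 responses, was found in 23 of 45 effector cells and 0 naive cells, Tbx21, its regulator, in 17 and 0, and Cxcr3, a receptor that T-bet switches on, in 28 and 0. In edgeR 0 of the 5 tested type 1 genes passed, while DESeq2 and limma each called 4 higher, against 13.8% and 6.95% of all tested genes. Ifng, Tbx21 and Cxcr3 had passed the detection filter through the effector cells alone, which favours such calls. edgeR called 3 higher with no replicate block, against 3.83% of all genes in that fit, 2 over protein-coding genes only, against 2.05%, and 1 with no filter, against 0.115%. Of the tested genes of the type 2 (2), type 17 (1), follicular helper (2) and regulatory (3) programs edgeR called 0. DESeq2 and limma each called 1 type 2 and 1 regulatory gene higher, as did edgeR with no replicate block, and 0 of the other programs. Il4, the cytokine of type 2 responses, was found in 17 effector cells, 10 of which also had counts on Ifng, and in 0 naive cells (adjusted p = 0.228 in edgeR, 0.0157 in DESeq2 and 0.038 in limma). Il17a, of the type 17 lineage, and Foxp3, of regulatory cells, were not detected in either subtype at this depth. Cd4 stood at 0, 66.8 and 353 CPM in the effector and 54.4, 297 and 604 CPM in the naive sums, lower in 5 of 6 mice. The groups overlapped, and the difference did not pass in edgeR (adjusted p = 0.615) or DESeq2 (adjusted p = 0.134), but passed with limma (adjusted p = 0.0909).

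Ribosomal protein genes made up 21 of the 42 lower genes. Of 83 ribosomal protein genes, 79 were tested, 21 were lower, against 1.07% of all tested genes, and 0 were higher. The 21 became 7 without mouse 21 or 22, 11 without 24, 12 without 14 or 15 and 14 without 23. They became 3 with genes detected as a covariate and 0 in uncontaminated cells, in 77-week mice or in mice with at least 6 cells of each subtype. Their median log2 difference there was -0.72, -0.33, -0.47 and -0.52, in that order, against -0.62. The median of all tested genes in these settings was -0.57, 0.52, 0.19 and -0.0059, in the same order, against -0.096 in the main fit. With genes detected as a covariate the ribosomal median thus lay close to that of all genes. Rps19, of the small subunit, stood at 3573, 3798 and 4424 CPM in the effector and 7420, 7901 and 9557 CPM in the naive sums, a log2 difference of -1.07 ± 0.08 (SE, adjusted p = 0.00305). Rpl35, of the large subunit, stood at 929, 1271 and 1776 against 2452, 3633 and 4051 CPM, a log2 difference of -1.47 ± 0.18 (SE, adjusted p = 0.0167). Rplp0, of the ribosomal stalk, stood at 1824, 3105 and 4478 against 6424, 7720 and 10227 CPM, a log2 difference of -1.40 ± 0.20 (SE, adjusted p = 0.027). Effector and naive sums did not overlap for these 3 genes. Rpl15, Rpl4, Rpl32, Rps7 and Rps20 were also among the 12 lower genes with the smallest p, beside the pseudogenes Gm10925 and Gm7730, the transcription factor gene Klf7 and the neuronal vesicle gene Nsg2.

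The ribosomal protein genes together took 8.92% ± 0.993 of the counts in effector and 15.1% ± 0.876 in naive cells (SD, n = 6 mice), lower in 6 of 6 mice (exact permutation p = 0.03125, the smallest that 6 mice allow, adjusted p = 0.0938), a share that needs no scaling between libraries. Their median log2 difference was -0.62 under TMM and -0.38 under DESeq2's size factors, in each case below the median of all genes. With those factors 9 of them were lower and 0 higher, against 0.558% of all tested genes. Mitochondrial genes took 1.84% ± 0.307 of the counts in effector and 2.78% ± 0.731 in naive cells, lower in 6 of 6 mice (exact permutation p = 0.03125, adjusted p = 0.0938), and 1 of 21 tested mitochondrial genes, mt-Cytb, was lower (log2 difference -1.0 ± 0.19, SE, adjusted p = 0.0772), against 1.07% of all tested genes. With DESeq2's size factors, or without mouse 15, 21, 22, 23 or 24, 0 mitochondrial genes were called.

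A few genes of the cytoskeleton, antigen presentation and receptor signalling were higher, in lists set here against the 0.964% of all tested genes that edgeR called higher. Tmsb4x, which binds actin monomers, was 13495, 22478 and 27222 CPM in the effector and 9817, 12818 and 20887 CPM in the naive sums, higher in 6 of 6 mice although the groups overlapped (log2 difference 0.60 ± 0.10, SE, adjusted p = 0.0571). Arpc2, a subunit of the Arp2/3 complex, was the other of the 28 tested actin genes that was higher (log2 difference 0.81 ± 0.14, SE, adjusted p = 0.0576). Of 11 tested genes of MHC class I presentation, H2-K1 and H2-Q7 were higher and 0 were lower. H2-K1 stood at 3029, 4811 and 5255 against 2272, 2491 and 3058 CPM (log2 difference 0.80 ± 0.14, SE, adjusted p = 0.0576), higher in 6 of 6 mice with a small overlap. Trac, the constant region of the receptor alpha chain, was higher in all 6 mice (log2 difference 1.07 ± 0.20, SE, adjusted p = 0.0741) and was the gene called among 26 tested receptor signalling genes. These calls depended on single mice: 0 class I genes were called without mouse 14, 15, 21, 22 or 23, 0 actin genes without 14, 15, 21 or 23 and 1 without 22, and 0 receptor signalling genes without 15, 21, 22 or 23. Without the cells that had counts on Cd8a, Cd8b1, Cd79a, Ms4a1, Ncr1 or Lyz2, 0 class I, 1 actin and 0 receptor signalling genes were called. In edgeR no tested gene passed among 5 glycolysis, 17 immediate early and stress, 16 interferon response and 5 S100 genes, over the 3941 genes and 6 mice with the mouse as a block. With no replicate block it called 0, 2, 0 and 3 of them, against 6.85% of all tested genes, and over protein-coding genes only 0, 2, 0 and 1, against 4.95%. Without mouse 23 it called 1 immediate early gene and without mouse 24 it called 1 S100 gene. With no filter it called 1 S100 gene, and with mice of at least 1 cell per subtype 1 immediate early and 1 S100 gene. DESeq2 called 1, 8, 5 and 4 of them in either direction, against 20.7% of all tested genes, and limma 1, 5, 3 and 4, against 12%. The glycolysis counts and, less closely, the interferon counts lay near those shares.

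Markers of other cells moved with the subtypes in part. Natural killer markers summed to between 62.5 and 3206 CPM in the effector and between 0 and 199 CPM in the naive sums. Klrb1c was found in 25 effector and 0 naive cells, the defining markers Ncr1 and Eomes had 0 counts in effector cells, and Tyrobp was found in 2. edgeR called 0 of the 3 tested natural killer markers (2 with no replicate block and 2 over protein-coding genes only, against 3.83% and 2.05% of all genes there), and DESeq2 and limma 3 each, against 13.8% and 6.95% of all tested genes. Markers of unconventional T cells summed to between 538 and 4582 CPM against at most 1.87 CPM. Of 4 tested, edgeR called 1 higher, Klrk1, against 0.964% of all tested genes. It called 0 without mouse 15, with genes detected as a covariate or in uncontaminated cells. DESeq2, limma and edgeR with no replicate block each called 4, against 13.8%, 6.95% and 3.83%. Klrk1 and Klrb1c had passed the detection filter through the effector cells alone. The gamma chain constant gene Tcrg-C4 had counts in 16 effector and 0 naive cells, and the delta chain constant gene Trdc in 4 and 7. B cell markers summed to between 0 and 1013 CPM in effector and between 116 and 1025 CPM in naive sums, with Ms4a1 and Cd79b at 0 in both. Monocyte and neutrophil markers reached 909 and 670 CPM, with Lyz2 at 0 in both, the CD8 genes 1138 and 134 CPM, and the platelet markers 0 and 159 CPM. Red cell markers reached 49666 CPM in effector and 150616 CPM in naive sums, and hemoglobin CPM per cell was lower in the effector cells of 4 of 6 mice (exact permutation p = 0.1875). Leaving out the cells with counts on Cd8a, Cd8b1, Cd79a, Ms4a1, Ncr1 or Lyz2 kept 43 of 45 effector and 78 of 85 naive cells, called 50 genes and kept the direction of all 80. It did not remove cells with counts on Klrb1c, Klrk1 or the gamma and delta chain genes. The part of these markers in the remaining differences was not tested.

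The number of genes detected per cell, with each cell thinned to 150000 counts, was 2295 ± 149 in effector and 2153 ± 133 in naive cells (SD, n = 6 mice). It was higher in the effector cells of 4 of 6 mice, and the difference of 141 ± 153 (SD) did not pass (two-sided exact permutation p = 0.125, adjusted p = 0.15). Without thinning the values were 2811 ± 137 and 2627 ± 210, higher in 5 of 6 mice (exact permutation p = 0.0938). At a minimum of 5 counts per gene the difference was 159 genes and went the same way in 6 of 6 mice (exact permutation p = 0.03125).

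**Figure D5:**
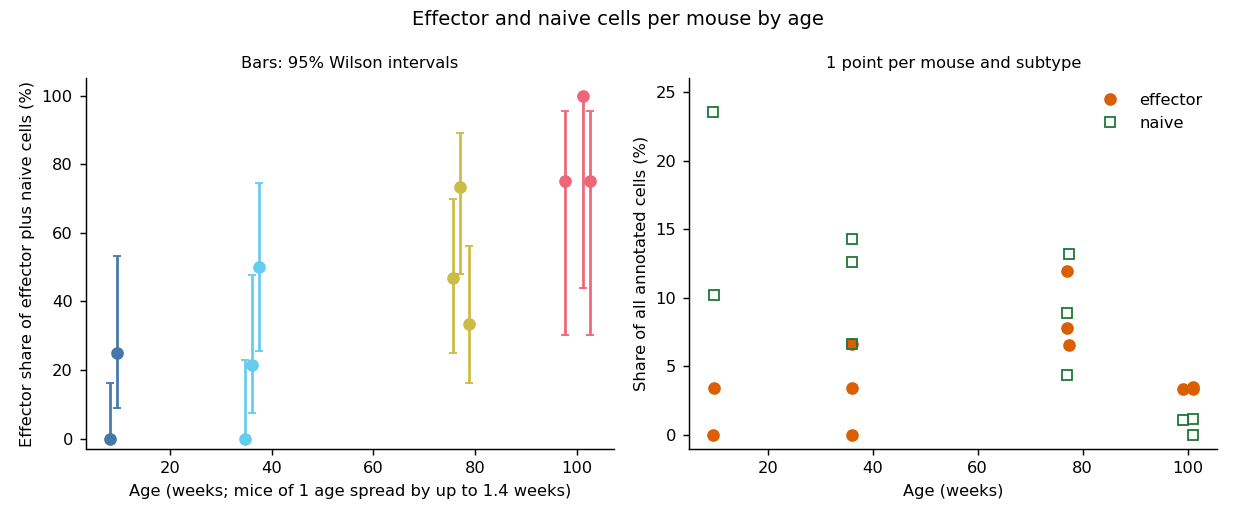
Left, effector cells as a percentage of effector plus naive cells in each of the 11 mice against age in weeks, with 95% Wilson intervals; right, effector and naive cells as a percentage of all annotated cells of the mouse. The effector share runs from 0% and 25% at 10 weeks to 75% to 100% at 101 weeks, while on the right the naive cells go from 23.5% and 10.2% to at most 1.18%.

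The share of effector cells among effector and naive cells was higher in older mice. It was 0% and 25% in the mice of 10 weeks, 0%, 21.4% and 50% at 36 weeks, 33.3%, 46.7% and 73.3% at 77 weeks and 75%, 75% and 100% at 101 weeks. Each mouse gave between 3 and 20 such cells, and the Wilson interval of the mouse at 100%, with 3 cells, ran from 43.9 to 100%. Across the 11 mice the share correlated with age (Pearson's r = 0.84, permutation p = 0.00251, adjusted p = 0.01 over 8 coefficients). Spearman's rho was also 0.84 (permutation p = 0.00196, adjusted p = 0.01). Leaving out the 2 mice whose age lay farthest from the median gave r = 0.81 (permutation p = 0.0112, n = 9). Among the 6 mice sequenced wholly in lane 2 r was 0.93 (exact permutation p = 0.0111). No r was computed for the 4 mice wholly in lane 1, at 25% at 10 weeks, 50% at 36 and 46.7% and 73.3% at 77. Mice wholly in lane 2 had lower shares at these ages, 0%, 0% and 33.3%. The mice of 101 weeks were all in lane 2. How far lane entered the shares was not tested. As a share of all annotated cells the effector cells did not follow age (r = 0.36, permutation p = 0.273, adjusted p = 0.312, n = 11), whereas naive cells were fewer in older mice (r = -0.78, permutation p = 0.00437, adjusted p = 0.0117). The effector cells were 0% to 6.67% of all annotated cells in the 5 mice of 10 and 36 weeks, 6.59%, 7.78% and 11.96% at 77 weeks, and 3.33% to 3.53% at 101 weeks, a course that was not tested.

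Within a subtype, age moved few genes past the threshold. The effector sums differed in their cells led by Trav11d: 2 of 3 at 10 weeks, and 2 of 3 and 6 of 6 at 36 weeks. At 77 weeks these were 6 of 6, 5 of 7 and 8 of 11, and at 101 weeks 1 of 3, 1 of 3 and 3 of 3. No age fit held a term for this make-up, and its part in the effector slopes was not tested. In the effector sums of 9 mice edgeR called 0 of 3615 genes (0%), while 173 had an unadjusted p under 0.05 and DESeq2 called 129. In the naive sums of 8 mice aged 10 to 77 weeks 1 of 3022 genes (0.0331%) was called, the noncoding RNA gene Gm12940, which fell by 0.72 ± 0.08 on the log2 scale per 10 weeks (SE, adjusted p = 0.0487). DESeq2 called 34, and edgeR 0 without mouse 11, 14, 21, 22, 23 or 24. Gm12940 stood at 39.6 and 65.6 CPM in the mice of 10 weeks, 14.1, 13.8 and 26.7 CPM at 36 weeks and 2.24, 1.95 and 1.05 CPM at 77 weeks, with no overlap between the ages. With both subtypes in 1 edgeR fit and the subtype as a term 0 of 3941 genes (0%) passed, although sums of 1 mouse are not independent there, with 170 at an unadjusted p under 0.05, 46 called by DESeq2 and 0 by limma with the mouse as a random block. The difference between effector and naive cells changed with age for 0 of 3941 genes (0%) in the paired mice, with 145 at an unadjusted p under 0.05 and 432 called by DESeq2.

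Ahnak, a large scaffold protein, was found in 42 effector and 8 naive cells, and S100a6 in 35 and 0. Within effector cells Ahnak stood at 809 CPM in the mouse of 10 weeks, between 422 and 1216 CPM at 36 and 77 weeks, and at 979, 1729 and 1911 CPM at 101 weeks. Its slope was 0.065 ± 0.070 (SE, adjusted p = 0.999) on the log2 scale per 10 weeks. S100a6 stood at 153 CPM at 10 weeks and between 663 and 1266 CPM at the later ages, with a slope of 0.13 ± 0.081 (SE, adjusted p = 0.999), and its level at 10 weeks rests on 3 cells of 1 mouse. S100a11, of the same family, had a slope of 0.047 ± 0.095 (SE, adjusted p = 0.999). The class I gene H2-K1 and the ferritin gene Fth1 had slopes of 0.050 ± 0.025 and 0.086 ± 0.036 in effector cells and 0.024 ± 0.022 and 0.051 ± 0.045 in naive cells, and Rplp0 of 0.061 ± 0.037 and -0.052 ± 0.025 (all SE), none past the threshold.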

How the data were processed

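The authors deposited raw read counts per gene and cell for 1055 cells, and per their methods trimmed reads with Trim Galore 0.6.7, aligned them to GRCm38 with STAR and counted them with featureCounts on Ensembl genes. Reads carried no molecular identifiers, so copies made by amplification were counted as separate reads. Intervals on shares of cells cover counting error only. The 2 deposited samples do not separate cells by animal: mouse, age and cell type came from the study's cell table, and sequencing lane and plate from the names of the raw files. Multi-mapped reads affect near-identical genes such as Trav11 and Trav11d. The genes, lists and comparisons were chosen with earlier results of these data known.

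Counts of cells were summed per mouse and subtype, and genes with counts in 25% or more of either subtype's cells were tested with edgeR 4.0.16 (TMM scaling, robust quasi-likelihood test, mouse and subtype as terms, Benjamini-Hochberg threshold 0.1; R 4.3.3). CPM are TMM-scaled and relative to the counts on tested genes, and in single cells relative to all counts. DESeq2 1.42.0 and limma 3.58.1 were alternatives. Effector sums of at least 3 cells (9 mice) and naive sums (8 mice) were fitted against age in units of 10 weeks. Values per mouse were compared with exact sign-flip permutation tests. Correlations were tested with 100000 permutations or, with 6 mice, all of them, and the share of naive among annotated cells was added after seeing the data. Wilson intervals are at 95%, and a group at 0 was set at 3 counts over all its sums for a ratio of mean CPM. Genes named were, for each direction, the first 12 by p past the threshold, up to 4 of each list by p, the defining genes of the subtypes, and genes that ageing comparisons had raised; segments Trav11, Trav11d and Traj18, Il4, Zbtb16, Tcf7, the remaining called genes and the cells led by Trav11d were singled out after their values were seen. Sequences and coordinates came from GENCODE M21 transcripts on GRCm38. The scripts were tested on simulated counts. Some genes of the lists are not reported here.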

Additional observations from a re-analysis of the deposited data

Results flagged for a closer look

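Dixon's test in 47 groups of 6 mice, of which about 1 in 20 passes by chance, marked 4 values, given here without explanation. The mean number of genes detected per thinned effector cell was 2576 in mouse 22, above the other 5 mice. The naive mean was 1897 in mouse 23, below the other 5, and rests on 4 cells. Hemoglobin genes took 22374 CPM in the effector cells of mouse 23, above the other 5. AW112010 was at 2483 CPM in the effector sum of mouse 24, below the other 5 effector sums though above every naive sum, and rests on 3 cells.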

How the results depend on the processing

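The 80 called genes became 816 with DESeq2, 473 with limma, 270 with no replicate block, 153 with mice of at least 1 cell per subtype and 123 over protein-coding genes only. They became 50 without cells that had counts on any of 6 markers of CD8, B, natural killer or myeloid cells, 45 in thinned cells, 40 at a threshold of 0.05, 31 with no filter, 24 with a 10% filter, 12 with genes detected as a covariate, 4 in the mice of lane 1, and 0 in mice with at least 6 cells of each subtype (377 at an unadjusted p under 0.05), in uncontaminated cells and in 77-week mice; the last and the lane were chosen after seeing the data. Leaving out 1 mouse gave 21 (without mouse 21) to 56 (without mouse 24), with 20 and 40 genes shared with the full set. With 6 mice and as few as 3 cells in a sum, these counts set no lower limit on the genes that differ. Gm28437 turned from lower to higher with mice of at least 1 cell (log2 0.025) and in uncontaminated cells (0.23). Both fits with and without the replicate block kept the direction of all 80 genes.

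Age called 129 genes with DESeq2 in effector cells, where edgeR called 0 in full and 0 without any 1 mouse, and in naive cells 34 with DESeq2, 0 with no filter, 0 with genes detected as a covariate and 0 to 1 without 1 mouse. With subtype it called 46 with DESeq2, 1 with size factors and 0 to 2 without 1 mouse (1 without mouse 11 and 2 without 12), and the difference by age 432 with DESeq2, where edgeR called 0 in full and 0 without any 1 mouse. DESeq2 was not run without single mice. The effector share's r was 0.79 to 0.88 without 1 mouse and 0.36, past no threshold, over all annotated cells. Genes detected differed by 107 to 179 without 1 mouse and by 159 at 5 counts (unadjusted exact permutation p = 0.03125). In uncontaminated cells of 5 mice they differed by 103 ± 357 (SD, unadjusted exact permutation p = 0.5625). Shared Trbv differed by 10.96 to 16.5 points without 1 mouse and by 64.4 with Trav, which restates the lead of Trav11d.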
